A study of Arabidopsis thaliana with 12 samples.

Results

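*ARR4* (AT1G10470), *ARR7* (AT1G19050) and *ARR15* (AT1G74890) are type-A *ARABIDOPSIS RESPONSE REGULATOR* genes, and each was read by 1 probe set, a group of short oligonucleotides on the array (263236_at, 259466_at and 262212_at). The 3 genes were found by locus in the platform annotation or in the supplementary tables of the study, and they are read by 3 of the 22596 probe sets analysed, of which 14334 had a known locus. RNA was hybridized to 12 Affymetrix ATH1 arrays, 3 for each of 4 treatments. All 4 groups carried *35S::WUS-GR* in the *ap1-1;cal1-1* background, in which shoot apical meristems (SAMs) overproliferate in place of flowers. The transgene places WUSCHEL (WUS), a homeodomain transcription factor of the stem cell niche, fused to a glucocorticoid receptor domain under the broadly active 35S promoter, so that dexamethasone (Dex) brings WUS into the nucleus also in cells that do not normally make it. Plants of about 28 days were given mock solution, 10 µM Dex, 10 µM cycloheximide (Cyc), which blocks protein synthesis, or both agents (Dex+Cyc), for 4 h, and RNA came from the SAMs of 30 to 35 plants per treatment. Plants treated with Dex but lacking the transgene were not analysed here, so the action of Dex itself and that of WUS-GR cannot be told apart. The labels number the samples of a group without saying whether they came from separate plants, so a p-value here is set against differences among the arrays deposited, and these could be technical.

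Cytokinin is perceived by membrane histidine kinases, which pass phosphate through carrier proteins to response regulators in the nucleus. Type-B regulators are transcription factors that activate cytokinin-responsive genes. Type-A genes are among those targets, and their short proteins lack the DNA-binding domain and dampen the same pathway, so that cytokinin induces its own brake. In the SAM, cytokinin promotes *WUS* expression and stem cell proliferation. *ARR7* and *ARR15* encode closely related proteins that restrain cytokinin signaling in the meristem, whereas *ARR4* is known for its interaction with the photoreceptor phytochrome B and a role in the circadian clock.

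The arrays were alike in overall level. Each was scaled by the authors to the same trimmed mean, the medians lay between 214 and 236 signal units, and arrays within a group correlated at 0.937 to 0.949 over all probe sets on the log2 scale. With the dimmest 40% of probe sets left out, the leading principal component (85.0% of the variance of the centred values) parted the arrays with Cyc from those without. The next (6.12%) parted those with Dex from those without. Of the markers listed for the tissue, *CLV3* and *KNAT1*, both meristem genes, and *PI*, a gene of petals and stamens, had a named probe set, while the listed leaf genes were not analysed here.

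Signals are MAS5 values, a linear fluorescence intensity in arbitrary units. The signal of *ARR4* was 1201, 826 and 1274 in mock replicates 1, 2 and 3, and 1367, 1577 and 1980 in Dex. All 3 Dex arrays lay above all 3 mock arrays. With Cyc, the *ARR4* signal was 839, 1079 and 855, and with Dex+Cyc it was 1605, 1514 and 2090. Again every array with Dex lay above every array without it, whereas the Cyc arrays overlapped with mock and the Dex+Cyc arrays overlapped with Dex. The order of the group means was therefore Cyc (924 ± 134, SD, n = 3), mock (1100 ± 240), Dex (1641 ± 311) and Dex+Cyc (1737 ± 310), and only the step from mock to Dex parted the arrays of neighbouring groups.

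*ARR7* moved in the opposite direction with Dex and responded strongly to Cyc. Its signal was 1804, 1547 and 1933 in mock and 424, 761 and 595 in Dex. With Cyc it reached 5368, 7566 and 6415, and with Dex+Cyc it was 5224, 4826 and 3762. The arrays of all 4 groups were apart from each other, in the order Dex (593 ± 169, SD, n = 3), mock (1761 ± 197), Dex+Cyc (4604 ± 756) and Cyc (6450 ± 1099). The 2 groups without Cyc thus lay wholly below the 2 groups with it, and within each pair the group with Dex was the lower.

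*ARR15* followed the same order of means with more scatter. Its signal was 151, 73.7 and 171 in mock and 40.3, 55.5 and 24.3 in Dex. With Cyc it was 208, 279 and 174, and with Dex+Cyc it was 146, 262 and 116. Dex (40.03 ± 15.6, SD, n = 3) was below mock (132 ± 51.5) on every array, but the Dex+Cyc arrays (174 ± 76.9) overlapped with both mock and Cyc (220 ± 53.7). The mock array of replicate 2 was the lowest of its group for all 3 genes, and the arrays of *ARR15* in Dex+Cyc were spread from 116 to 262. In whole SAMs, a lower signal from fewer expressing cells and one from less RNA per cell cannot be told apart.

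**Figure D1:**
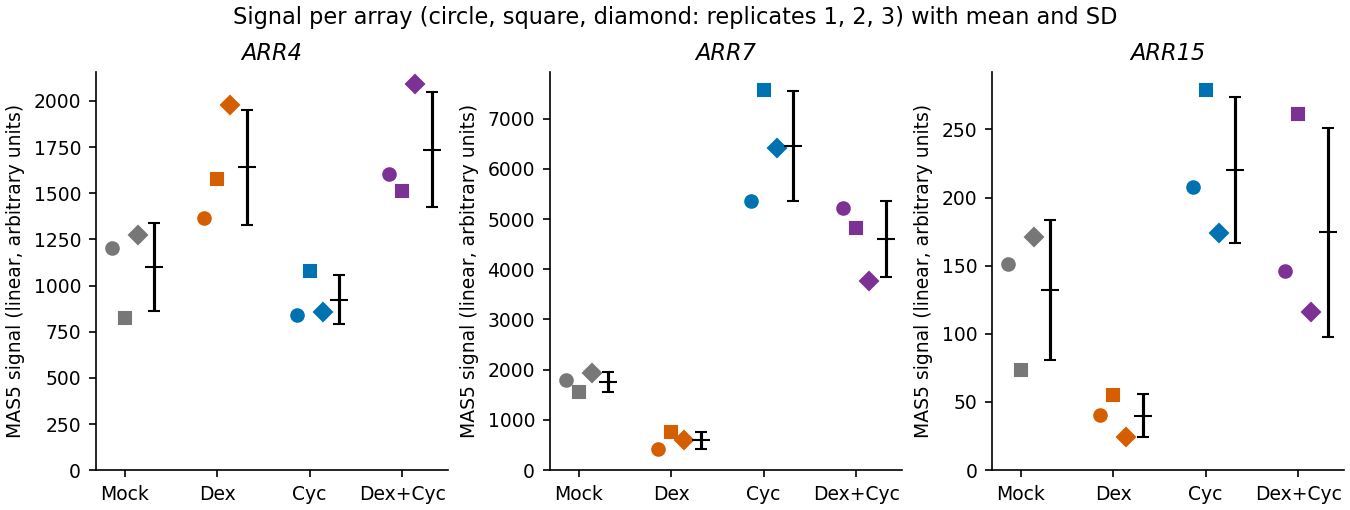
MAS5 signal (linear, arbitrary units, 1 vertical axis per gene starting at 0) of *ARR4*, *ARR7* and *ARR15* on each of the 12 arrays, with circles, squares and diamonds for replicates 1, 2 and 3 and bars for the mean and SD of each group (n = 3). *ARR4* is higher on all arrays with Dex, and *ARR7* is lowest in Dex (593 ± 169) and highest in Cyc (6450 ± 1099).

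The comparison of Dex with mock asks which genes respond within 4 h of WUS-GR activation. *ARR7* was downregulated to 33.7% of its mock mean, a log2 fold change of -1.60 (SE 0.23, 95% interval -2.12 to -1.09), and it passed both thresholds of the study, an adjusted p under 0.01 and a change of at least 2-fold (limma, adjusted p = 0.0055). Of all probe sets, 0.73% were called lower and 0.451% higher in this comparison, so *ARR7* was 1 of 165 probe sets called lower. *ARR15* had a fold change of similar size, -1.71 on the log2 scale (SE 0.43, interval -2.68 to -0.74), and did not pass (limma, adjusted p = 0.0549). Its mock and Dex signals lay below the median of every array. With 32 units added to every signal before the log2 step, its value was -1.15, against -1.55 for *ARR7*. *ARR4* had a log2 fold change of 0.59 (SE 0.22, interval 0.10 to 1.07) and did not pass (limma, adjusted p = 0.173). All 3 genes had their arrays apart, *ARR4* on the higher side and the other 2 on the lower side, as had 12.5% and 12.9% of all probe sets. The median log2 fold change of all probe sets was -0.006.

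The call of *ARR7* was lost under several settings. With only the 6 Dex and mock arrays in the fit the adjusted p was 0.0571 in limma, and in 7 of the 12 fits that left out 1 array it was over 0.01 (up to 0.0251), while the log2 fold change stayed between -1.80 and -1.38. The arrays whose removal lost the call were the 3 mock arrays, Dex replicates 1 and 3, Cyc replicate 3 and Dex+Cyc replicate 2. *ARR15*, in turn, passed when the dimmest 40% of probe sets were left out (adjusted p = 0.00962) and with a variance trend and robust shrinkage (adjusted p = 0.00757). The study reported from these same arrays that, with Cyc present, *ARR4* was activated and *ARR7* and *ARR15* were repressed. The direction of the 3 genes here is therefore not independent evidence. That report concerned Dex+Cyc against Cyc, with GCRMA values. With the MAS5 values used here, none of the 3 genes passed in that comparison (log2 fold changes 0.91, -0.49 and -0.40 for *ARR4*, *ARR7* and *ARR15*). From mock to Dex, the listed tissue markers *CLV3* and *KNAT1* were also called: *CLV3* went from 85.9 ± 37.2 to 912 ± 157 (SD, n = 3) and *KNAT1* from 2860 ± 399 to 836 ± 96.5. *PI* was at 1018 ± 230 in mock and 711 ± 127 in Dex, with overlapping arrays (limma, adjusted p = 0.289). The part of these markers in the results was not tested.

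The comparison of Dex+Cyc with Cyc asks which responses remain when new protein cannot be made. None of the 3 genes was called, where 0.0133% of all probe sets were called higher and 0.0929% lower. Nor were the listed markers called, though their arrays were apart. From Cyc to Dex+Cyc, *CLV3* went from 101 ± 44.2 to 546 ± 92.5 (SD, n = 3; limma, adjusted p = 0.0214). *KNAT1* went from 1481 ± 171 to 503 ± 134 (limma, adjusted p = 0.0121), and *PI* from 566 ± 65.9 to 412 ± 102 (adjusted p = 0.425). The part of these markers was not tested. *ARR4* had the largest change of the trio, 0.91 on the log2 scale (SE 0.22, interval 0.42 to 1.39; limma, adjusted p = 0.0838), and its arrays were apart, as were those of 11.5% of all probe sets on the higher side. *ARR7* had a log2 fold change of -0.49 (SE 0.23, interval -1.0004 to 0.03; limma, adjusted p = 0.396), with its arrays apart on the lower side, like 9.64% of all probe sets. *ARR15* had -0.40 (SE 0.43, interval -1.37 to 0.58; limma, adjusted p = 0.775), and its arrays overlapped. This value was -0.21 without Cyc replicate 2, -0.73 without Dex+Cyc replicate 2 and -0.15 without Dex+Cyc replicate 3. The unadjusted p-values were 0.00214, 0.0614 and 0.383 in the same order, so 1 of the 3 genes was under 0.05, where 7.53% of all probe sets were under it on the higher side and 6.22% on the lower. *ARR4* was thus apart and higher in both Dex comparisons, as were 4.17% of all probe sets, and *ARR7* was apart and lower in both, as were 3.91%. These 2 comparisons share no array.

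Whether the Dex effect differed with and without Cyc was tested as the difference of the log2 fold changes. It was 0.32 for *ARR4* (SE 0.31, interval -0.37 to 1.01), 1.12 for *ARR7* (SE 0.32, interval 0.39 to 1.85) and 1.31 for *ARR15* (SE 0.61, interval -0.06 to 2.69). None passed in limma (adjusted p = 0.852, 0.383 and 0.635), where 0.00443% of all probe sets were called in each direction. The unadjusted p of *ARR7* was 0.0068, and 4.89% of all probe sets had one under 0.05 with a positive difference and 3.36% with a negative one. In signal units the picture for *ARR7* was turned: Dex lowered its mean by 1168 units without Cyc (SE 150) and by 1846 with Cyc (SE 770), a difference of -678 (SE 785). The proportional loss was thus the larger without Cyc, where 33.7% of the signal was left against 71.4% with Cyc, while the loss in units was the larger with Cyc, by less than its standard error. For *ARR4* the Dex mean was 149% of mock and the Dex+Cyc mean 188% of Cyc, and for *ARR15* the shares were 30.3% and 79.2%.

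**Figure D2:**
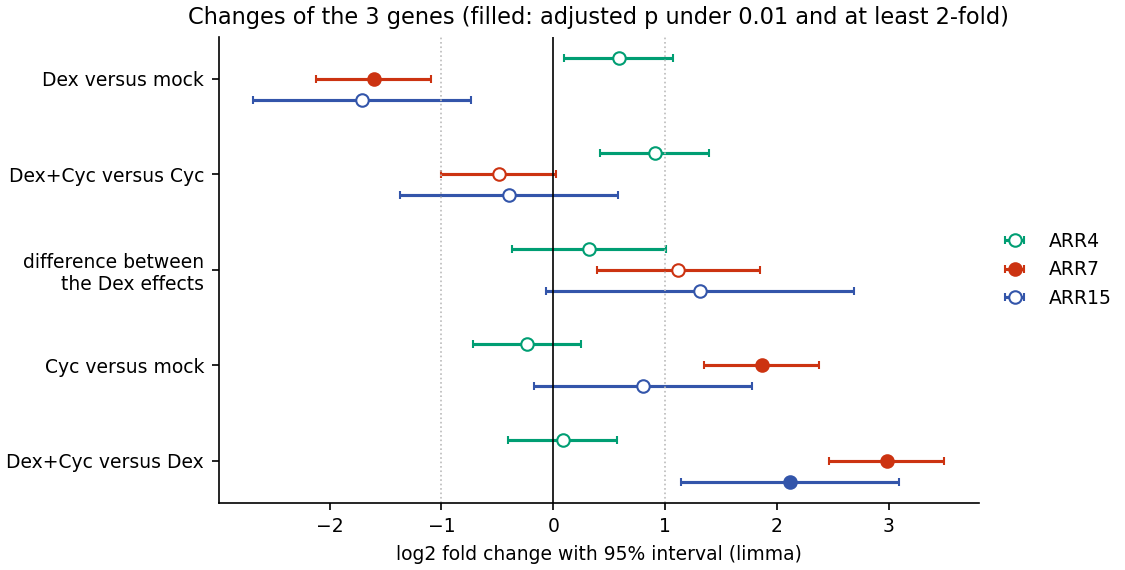
log2 fold change with 95% interval (limma, 12 arrays) of *ARR4*, *ARR7* and *ARR15* in each comparison; filled symbols passed an adjusted p under 0.01 with at least a 2-fold change, and dotted lines mark a 2-fold change. Filled are *ARR7* in Dex versus mock (-1.60) and in both Cyc comparisons (1.86 and 2.98), and *ARR15* in Dex+Cyc versus Dex (2.12).

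Because 3 arrays against 3 cannot give an exact p under 0.10, the Dex effect was also averaged over the arrays with and without Cyc. An exact two-sided permutation test exchanged Dex and no Dex within these strata, over 400 arrangements with 0.005 as the smallest possible p, and p-values were adjusted over 6 tests, 3 genes and 3 pairs of genes. Arrays apart on the same side in both strata give this smallest p by themselves. That held for 4.17% of all probe sets on the higher side and 3.91% on the lower. *ARR4* was upregulated by 0.75 on the log2 scale (1.68-fold, 95% interval 0.385 to 1.105; exact p = 0.005, adjusted 0.0075). *ARR7* was downregulated, at -1.05 (2.06-fold, interval -1.595 to -0.495; exact p = 0.005, adjusted 0.0075). Its values were -1.604 without Cyc and -0.486 with it. The interval takes 1 shift for both strata and holds neither value. *ARR15* was also downregulated, at -1.05 (2.08-fold, interval -1.883 to -0.183; exact p = 0.025, adjusted 0.03), and its adjusted p was over 0.05 (up to 0.072) without Dex replicate 1 or 3, Cyc replicate 2, or Dex+Cyc replicate 1 or 3.

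The genes were then set against each other on the same arrays. The average Dex effect of *ARR7* was lower than that of *ARR4* by 1.79 on the log2 scale, the difference being -1.79 (interval -2.32 to -1.26; exact p = 0.005, adjusted 0.0075). In both strata *ARR4* was apart on the higher side and *ARR7* on the lower, so this p was fixed by the single-gene results. The average Dex effect of *ARR15* minus that of *ARR4* was -1.80 (interval -2.639 to -1.019; exact p = 0.005, adjusted 0.0075). On these arrays *ARR4* differed in its Dex response from both of the other genes by more than the spread between arrays. The study had already named these directions from the same arrays, so the difference is not independent evidence. Between *ARR7* and *ARR15* the difference was 0.008 (exact p = 0.975), and its interval, -0.592 to 0.658, holds differences in either direction.

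**Figure D3:**
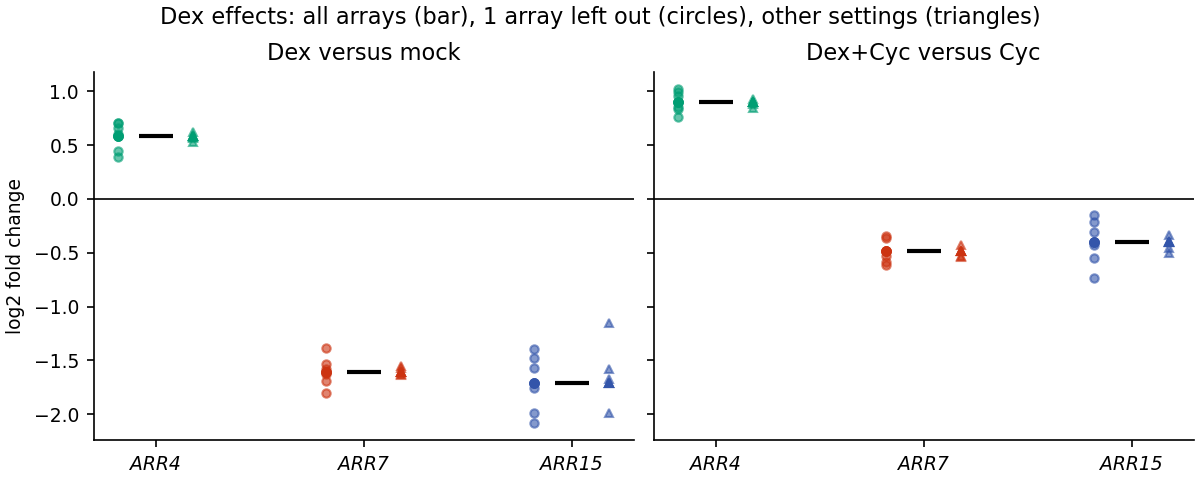
log2 fold change of *ARR4*, *ARR7* and *ARR15* in Dex versus mock (left) and Dex+Cyc versus Cyc (right), with a bar for the fit of all 12 arrays, circles for fits with 1 array left out and triangles for other processing settings. *ARR4* stays above 0 and *ARR7* and *ARR15* below 0 in both comparisons, and *ARR15* is the most scattered.

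Cyc alone raised *ARR7* 3.64-fold over mock, a log2 fold change of 1.86 (SE 0.23, interval 1.35 to 2.38; limma, adjusted p = 0.000175). Calls were common here, since 8.3% of all probe sets were called higher and 7.32% lower. *ARR15* had a log2 fold change of 0.80 (SE 0.43, interval -0.17 to 1.78; limma, adjusted p = 0.178), with its arrays apart on the higher side, as were those of 18.2% of all probe sets. It was 0.43 without mock replicate 2, the lowest mock array, and 0.53 with array weights. *ARR4* had -0.24 (SE 0.22, interval -0.72 to 0.25; limma, adjusted p = 0.435), and its arrays overlapped. The median log2 fold change of all probe sets was -0.18, and more probe sets had their arrays apart on the lower side (31.9%) than on the higher. The tissue marker *KNAT1* went from 2860 ± 399 to 1481 ± 171 (SD, n = 3; limma, adjusted p = 0.00525) and *PI* from 1018 ± 230 to 566 ± 65.9 (adjusted p = 0.0194), each with its arrays apart, while those of *CLV3* overlapped.

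With Dex present in both groups, Cyc was again accompanied by higher levels of *ARR7*, and here *ARR15* passed too. From Dex to Dex+Cyc, *ARR7* went up 7.90-fold (log2 2.98, SE 0.23, interval 2.47 to 3.50; limma, adjusted p = 9.27e-06) and *ARR15* 4.33-fold (log2 2.12, SE 0.43, interval 1.14 to 3.09; limma, adjusted p = 0.00358), where 8.51% of all probe sets were called higher and 5.63% lower. Their arrays were apart on the higher side, as were those of 19.8% of all probe sets. With only the 6 Dex and Dex+Cyc arrays in the fit the adjusted p of *ARR15* was 0.0163 in limma, and it was 0.0106 to 0.0148 without Dex replicate 1 or 3 or Dex+Cyc replicate 1 or 2. *ARR4* had a log2 fold change of 0.08 (SE 0.22, interval -0.40 to 0.57; limma, adjusted p = 0.802). *ARR7* and *ARR15* were apart and higher in both Cyc comparisons, as were 13.9% of all probe sets. Whether these changes differ between arrays with and without Dex is the same contrast as the difference between the Dex effects, which no gene of the 3 passed. The Cyc comparisons share the arrays of the Dex comparisons. From Dex to Dex+Cyc, *KNAT1* was at 836 ± 96.5 and 503 ± 134 (SD, n = 3; limma, adjusted p = 0.016), *PI* at 711 ± 127 and 412 ± 102 (adjusted p = 0.0229) and *CLV3* at 912 ± 157 and 546 ± 92.5 (adjusted p = 0.184), all with their arrays apart on the lower side, as were those of 32.4% of all probe sets. The part of these markers in the results was not tested.

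Averaged over the arrays with and without Dex, in a permutation test added after the values had been seen, *ARR7* rose with Cyc by 2.42 on the log2 scale (interval 1.874 to 2.974; exact p = 0.005, adjusted over 6 tests 0.0075). Its values were 1.865 without Dex and 2.983 with it, and the interval, which takes 1 shift for both, holds neither. *ARR15* rose by 1.46 (interval 0.628 to 2.328; exact p = 0.005, adjusted 0.0075). The arrays of both genes were apart in both Cyc comparisons, which by itself gives the smallest possible p. The same held for 13.9% of all probe sets on the higher side and 25% on the lower. For *ARR4* the average was -0.08 (interval -0.446 to 0.304; exact p = 0.65). The rise of *ARR7* was larger than that of *ARR15* by 0.97 (interval 0.375 to 1.545; exact p = 0.02, adjusted 0.024), whereas in the Dex test the interval of their difference held 0. Both also differed from *ARR4*, *ARR7* by 2.50 (interval 2.0 to 3.0) and *ARR15* by 1.53 (interval 0.795 to 2.395), each with an exact p of 0.005.

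The spread of the 3 genes was wide for their signal. The residual SD within groups was 0.27 for *ARR4* and 0.29 for *ARR7* on the log2 scale, against a median of 0.15 among the 1001 probe sets of most like signal in each case. For *ARR15* it was 0.56 against 0.32. As a description of the 12 arrays, which share treatments and scaling, deviations from the group means correlated at 0.48 between *ARR7* and *ARR15* (same sign on 8 arrays), at 0.31 between *ARR4* and *ARR7* (7 arrays) and at 0.08 between *ARR4* and *ARR15* (7 arrays).

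The rest of the cytokinin pathway was sparsely covered. Of 62 listed genes of the pathway, 11 had a probe set named here, among them 4 of 10 type-A and 4 of 11 type-B regulators, 1 of 19 synthesis genes and 2 of 7 degradation genes; the listed receptors, phosphotransmitters and cytokinin response factors were not analysed here. Besides *ARR4*, *ARR7* and *ARR15* this left 8 genes. None of them was called in either Dex comparison or in their difference, and none had an unadjusted p under 0.05 there. Calls were rare over all probe sets too, at 0.451% higher and 0.73% lower in Dex versus mock, 0.0133% and 0.0929% in Dex+Cyc versus Cyc and 0.00443% each way in the difference, so that a count of 0 of 8 is near the background. The smallest adjusted p in limma was 0.427 for *ARR2* in Dex versus mock and 0.410 for *CKX4* in Dex+Cyc versus Cyc. Their median log2 fold change was 0.38 and -0.02 in these comparisons, against -0.006 and 0.03 over all probe sets. In each Cyc comparison 1 of the 8 was called higher and none lower, a share near that over all probe sets (8.3% higher and 7.32% lower in Cyc versus mock, 8.51% and 5.63% in Dex+Cyc versus Dex). The medians were 0.58 and 0.50 against -0.18 and -0.15 over all probe sets. Of the 8 genes, *ARR11*, *ARR16*, *ARR18*, *ARR19* and *CKX1* had signals of at most 69.3 on any array, where array medians were 214 to 236. The counts and medians of the 8 therefore rest largely on imprecise values.

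The gene called was *CKX4*, which encodes a cytokinin oxidase that degrades the hormone. Its signal was 8.19, 65.5 and 67.1 in mock and 52.0, 42.3 and 37.7 in Dex. It was 1457, 1576 and 1605 in Cyc and 701, 543 and 524 in Dex+Cyc. The arrays with Cyc were far above all others, by 5.55 on the log2 scale in Cyc versus mock (SE 0.67; limma, adjusted p = 0.000166) and 3.74 in Dex+Cyc versus Dex (SE 0.67; limma, adjusted p = 0.00177). The signals without Cyc were low and no pseudocount was used, so the mock array at 8.19 enlarges the 5.55. In signal units the means were 46.9 in mock and 1546 in Cyc. With Cyc present, the Dex+Cyc arrays were also apart from and below the Cyc arrays, at -1.40 (SE 0.67; limma, adjusted p = 0.410), a side on which *ARR7* lay too. The same held for 9.64% of all probe sets.

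*ARR16*, the other type-A gene that could be tied to a probe set here, had low signals. Its signal was 1.59, 2.68 and 24.0 in mock and 3.98, 8.02 and 0.666 in Dex, against 30.02, 64.9 and 29.9 in Cyc and 23.8, 69.3 and 37.4 in Dex+Cyc. The Cyc arrays lay above mock and the Dex+Cyc arrays above Dex, with log2 fold changes of 3.05 (SE 1.12; limma, adjusted p = 0.0546) and 3.84 (SE 1.12; limma, adjusted p = 0.0217). Arrays were apart on the higher side for 18.2% and 19.8% of all probe sets in these comparisons. Mock and Dex overlapped, as did Cyc and Dex+Cyc.

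*ARR2*, a type-B activator of cytokinin-responsive genes, was lower with Cyc. Its signal was 490, 433 and 557 in mock, 798, 474 and 696 in Dex, 410, 266 and 263 in Cyc and 381, 312 and 348 in Dex+Cyc. The groups with Cyc were apart from their partners without it, at -0.68 in Cyc versus mock (SE 0.23; limma, adjusted p = 0.0402) and -0.89 in Dex+Cyc versus Dex (SE 0.23; limma, adjusted p = 0.0125), which is short of the 2-fold threshold. Arrays were apart on the lower side for 31.9% and 32.4% of all probe sets in these comparisons, and for 25% in both. The remaining genes, *ARR11*, *ARR18*, *ARR19*, *IPT9*, a gene of cytokinin synthesis, and *CKX1*, passed in no comparison, and the smallest adjusted p among them was 0.223, for *ARR11* in Cyc versus mock. Except for *IPT9* their signals were low on every array, at most 47.7 for *ARR11*, 30.8 for *ARR18*, 30.2 for *ARR19* and 41.1 for *CKX1*. Their SEs were wide (0.71 for *ARR11*, 1.45 for *CKX1*), so a missing call says little about these genes.

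**Figure D4:**
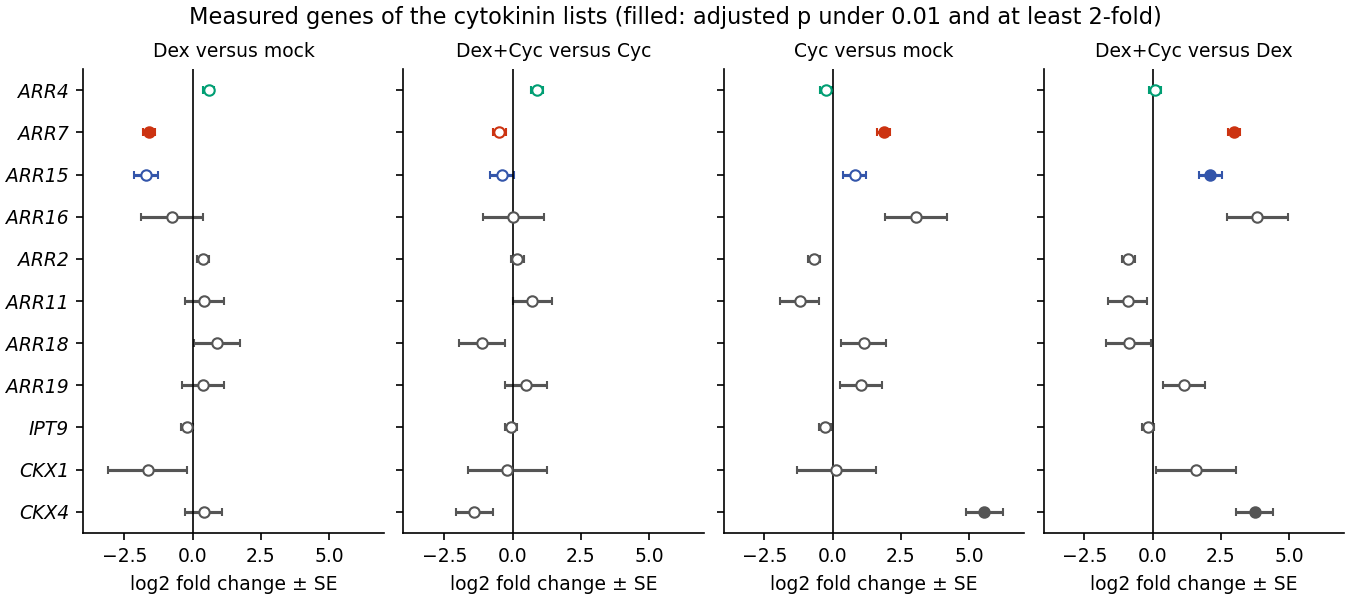
log2 fold change ± SE (limma) of the 11 cytokinin pathway genes with a named probe set in the Dex and Cyc comparisons, filled where the adjusted p was under 0.01 with at least a 2-fold change. In Dex versus mock only *ARR7* is filled, and in the Cyc comparisons *ARR7* and *CKX4* are filled, joined by *ARR15* in Dex+Cyc versus Dex.

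For each gene, the 5 loci with a symbol that ran closest over the 12 arrays were taken by the root mean square (RMS) difference of log2 signals, each centred on its own mean, among 2498 loci with a symbol. Around *ARR4*, whose own RMS variation was 0.44, stood *ERD14*, a dehydrin gene (RMS difference 0.21), *GFAT* (0.25), *Phox3* (0.26), the brassinosteroid receptor gene *BRL1* (0.27) and *UGT76C2*, which encodes a cytokinin glucosyltransferase (0.27). *ERD14* had geometric means of 1073 in mock, 1756 in Dex, 794 in Cyc and 1548 in Dex+Cyc. Both groups with Dex were above both groups without it, as for *ARR4*, but Dex and not Dex+Cyc was the highest.

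*ARR7* varied more, with an RMS of 1.37 around its mean. Closest were *WRKY11*, a WRKY transcription factor gene (0.29), *ASML2* (0.32), *LRR XI-23*, a receptor-like kinase gene (0.33), *MGD2*, a galactolipid synthase gene (0.38), and the homeodomain gene *HAT22* (0.38). *WRKY11* had geometric means of 1069, 535, 4296 and 2853 in mock, Dex, Cyc and Dex+Cyc, the same order of groups as *ARR7*.

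For *ARR15* (RMS 1.06) the closest were *FAF1*, a gene tied to meristem size (0.37), the DOF factor gene *TMO6* (0.42), *CSLC04* (0.43) and the amino acid permease genes *AAP4* (0.45) and *AAP6* (0.45). *FAF1* had geometric means of 638, 174, 1140 and 734 in mock, Dex, Cyc and Dex+Cyc, lower with Dex than in its control both without and with Cyc. The trio itself differed by 0.63 between *ARR7* and *ARR15*, by 1.31 between *ARR4* and *ARR15* and by 1.57 between *ARR4* and *ARR7*, so that neither *ARR7* nor *ARR15* was among the 5 closest of the other.

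**Figure D5:**
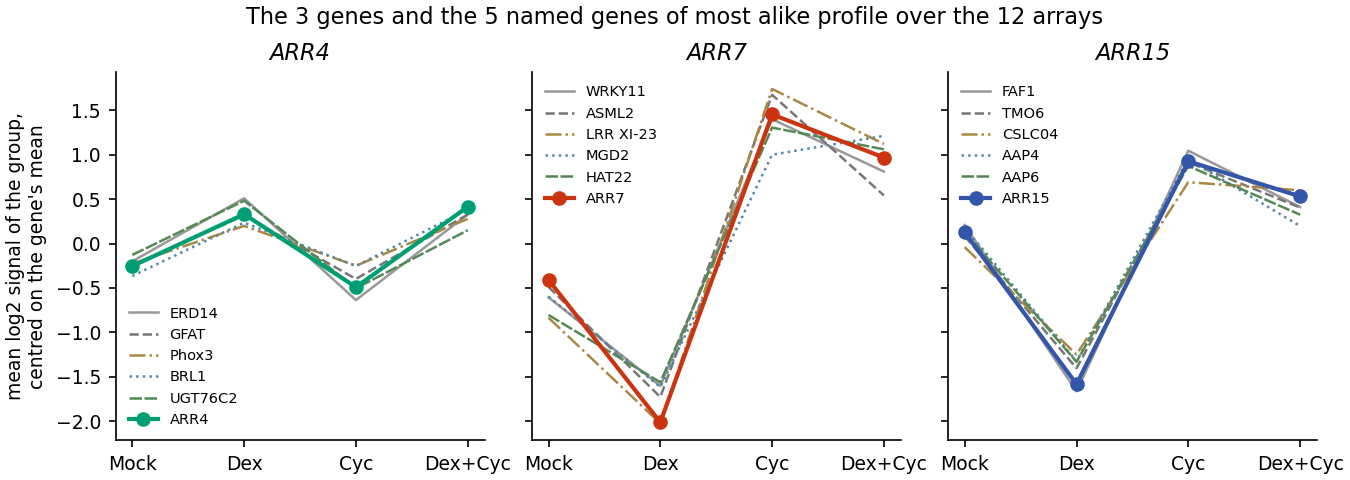
Mean log2 signal of each group, centred on the gene's mean, for *ARR4*, *ARR7* and *ARR15* (thick lines with points) and the 5 loci with a symbol of smallest RMS difference from each (thin lines). *ARR4* is higher in both groups with Dex and lowest in Cyc, while *ARR7* and *ARR15* are lowest in Dex and highest in Cyc.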

How the data were processed

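The authors deposited a linear MAS5 signal for every probe set, a fluorescence intensity scaled so that the mean of each array, without the top and bottom 2%, was 500. MAS5 and affy are named in the submitters' processing notes; no version is given. The test of the study used GCRMA values, which were not used here. Of 22810 probe sets, 64 controls were left out, and the brightest probe set was kept for each known locus, with no filter on low signals. This left 22596 probe sets, 14334 with a locus and 8262 tied to none here, and shares are over all of them. In the platform table, 1 gene was given for 13513 probe sets and several for 503, and the study's supplementary tables named 1048 more. Signals were taken as log2 without a pseudocount, and 1 limma fit (limma 3.58.1, R 4.3.3) with 4 group means used eBayes with 1.34 prior degrees of freedom, with p-values adjusted by Benjamini-Hochberg. Means ± SD are of the signals on 3 arrays, and fold changes are those fitted. Intervals of the permutation tests hold all shifts, taken as equal in both strata, with an exact p over 0.05. The fit and the permutation test were tested on simulated data. Arrays have no sequencing depth, and precision is limited by how many there were.

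The members, lists and tests were chosen with earlier results of these data known. Named genes were the 3 members, every measured type-A gene, list genes that were called or had the smallest adjusted p of their list, and the 5 closest loci of each member; others of the pathway list were named after their values were seen. Alternatives were quantile normalization, median centring, log2(signal + 32), leaving out the dimmest 40%, only the 6 arrays compared, a block for the replicate number, array weights, robust shrinkage with a variance trend, an adjusted p under 0.05 and each array left out. The average Cyc effect and the signal-unit differences were added after seeing the data. The probe sequences and genome positions were not used here.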

Additional observations from a re-analysis of the deposited data

How the results depend on the processing

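Over 27 results and 501 alternative values, 489 kept their direction. Many could not change, since settings that alter only the spread return the same value. So does leaving out an array outside the comparison. In Dex versus mock, *ARR7* stayed at -1.60 but lost its call with the replicate block (limma, adjusted p = 0.0167) and with only the 6 arrays compared (0.0571), and leaving out 1 array gave -1.80 to -1.38 (0.00792 to 0.0251). Without the dimmest 40% of probe sets, deviations of same-numbered arrays correlated at -0.088 to 0.253 (median 0.044). Those of other-numbered arrays correlated at -0.232 to 0.1815 (median -0.020). These ranges overlap and do not settle whether the numbers pair the samples. The labels give no pairing, so the main fit held no block, and the block changed no other call. In Dex versus mock, *ARR15* passed without the dimmest 40% (0.00962) and with the variance trend (0.00757), settings that leave its value at -1.71. It was -1.15 with log2(signal + 32), -1.58 with quantile normalization and -1.99 with array weights. From Dex to Dex+Cyc it was 1.48 with log2(signal + 32) and 1.86 with quantile normalization. There *ARR15* missed with only 6 arrays (0.0163, value 2.12), and it ran from 1.78 to 2.39 when an array was left out. Its average Dex effect was then -1.24 to -0.89. The *ARR7* difference between the Dex effects changed sign in signal units (-678). The *ARR4* value in Dex+Cyc versus Dex, near 0, turned to -0.0017 under median centring and ran from -0.057 to 0.23 without 1 array. The average Dex effect of *ARR7* minus *ARR15* turned to -0.27 with log2(signal + 32) and ran from -0.16 to 0.16 without 1 array. The causes were not tested. No detection calls were used.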
